A study of Mus musculus with 40 samples.

Results

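The genes for the proteins of the cytosolic ribosome were followed through hematopoietic progenitors of mice that carry leukemia mutations alone or in pairs. Members were all protein-coding genes of the GENCODE M21 annotation whose symbol is Rpl or Rps with a number and at most a short suffix, together with Rplp0, Rplp1, Rplp2 and Rpsa. Pseudogenes and the kinases that phosphorylate Rps6 were left out. This gave 83 genes, 51 of the large and 32 of the small subunit, of 41388 gene IDs in the count table of 14-day-old mice (P14) and 40548 in that of newborn mice (P0). All 83 were in both tables, and 82 had enough reads to be tested. The gene left untested, Rpl10l, had 0 counts in 19 of 24 P14 libraries and in 11 of 12 P0 libraries, and its highest value was 4 counts.

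The libraries were bulk RNA-seq of cells whose source is given as hematopoietic progenitor or MPP (multipotent progenitor). At P14 there were 6 genotypes, namely wild type, FLT3-ITD, NUP98-HOXD13 (called NHD13 from here on), Runx1-HET, FLT3-ITD/NHD13 and FLT3-ITD/Runx1-HET. At P0 there were 3, namely wild type, FLT3-ITD and FLT3-ITD/NHD13, and the P0 NHD13 samples were not analysed here. Each group had 4 libraries, which makes 36 libraries of the 40 samples in the labels. FLT3-ITD is an internal tandem duplication that leaves the receptor tyrosine kinase FLT3 active without its ligand, NHD13 is a fusion of the nucleoporin gene NUP98 with the homeobox gene HOXD13, and Runx1-HET mice lack a copy of the transcription factor gene Runx1. The promoter that drives NHD13, the zygosity of FLT3-ITD, the sort gate and whether the 4 samples of a group came from separate animals are not given in the sources used here, so p-values measure the spread between samples, which may be technical.

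Library totals ranged from 13.7 M to 27.3 M counts (M, 1e6) at P14 (median 19.9 M) and from 17.3 M to 39.3 M at P0 (median 28.8 M). All 8 progenitor markers checked (Kit, Cd34, Flt3, Cd48, Ly6a, Ptprc, Spi1 and Gata2) were found, and their summed level was 3605 to 6483 CPM at P14 and 3085 to 5353 CPM at P0. CPM is a gene's read count divided by the TMM-scaled library size in M counts, and all levels below are in this unit. A gene was called when the Benjamini-Hochberg adjusted p of edgeR's quasi-likelihood test, over all tested genes, was under 0.05. All P14 mutant groups were set against the same 4 wild-type libraries, so those comparisons share their controls and are given side by side. Most members vary together across libraries. A count of members above 0 is therefore a description and not a count of independent observations. In bulk RNA, fewer cells of a type and less RNA per cell cannot be told apart.

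A ribosome is built from ribosomal RNAs and a fixed set of proteins, most of them needed in equal amounts, and the genes for these proteins are scattered over the genome. Their messages usually begin with a cytosine followed by a run of pyrimidines, the 5' terminal oligopyrimidine (TOP) tract, which lets mTOR and LARP1 control their translation together, while MYC raises their transcription. Loss of a single copy of several of these genes causes Diamond-Blackfan anemia, loss of RPS14 is part of the 5q- syndrome, and free RPL5 and RPL11 bind MDM2 and thereby stabilise p53.

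RefSeq promoter sequences (GRCm38.p6) were found for 63 of the 83 members. Each window below runs from 10 bases before to 20 bases from an annotated start, 5' to 3' on the gene's strand. Capitals mark the unbroken run of pyrimidines from the first transcribed base. The first 6 are shown for a tract at the first base, and the last 3 (Rps27l, Rpl22l1 and Rps26) for a start annotated elsewhere.
Rpl15: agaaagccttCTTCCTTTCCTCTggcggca
Rpl35: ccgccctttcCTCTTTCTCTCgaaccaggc
Rpl28: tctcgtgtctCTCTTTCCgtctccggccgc
Rpl38: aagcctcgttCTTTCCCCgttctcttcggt
Rps6: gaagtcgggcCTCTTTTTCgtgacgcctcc
Rps27: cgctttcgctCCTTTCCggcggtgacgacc
Rps27l: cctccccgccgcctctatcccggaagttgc
Rpl22l1: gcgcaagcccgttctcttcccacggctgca
Rps26: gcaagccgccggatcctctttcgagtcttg

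In order, these windows lie at chr14:18270967-18270996 (reverse strand), chr2:39005112-39005141 (reverse), chr7:4792955-4792984 (forward), chr11:114668570-114668599 (forward), chr4:86857348-86857377 (reverse), chr3:90213629-90213658 (reverse), chr9:66946076-66946105 (forward), chr3:28805498-28805527 (forward) and chr10:128626487-128626516 (reverse). The tract was 13 bases long in Rpl15, 11 in Rpl35, 9 in Rps6, 8 in Rpl28 and Rpl38, and 7 in Rps27. The starts of Rps27l, Rpl22l1 and Rps26 are annotated at a G, and Rps27l has another annotated start that is not shown. A tract that begins with C at the first base and goes on for at least 4 more pyrimidines was present in 13 of 63 members (20.6%), against 2.64% of 16459 other genes with a promoter in the same table. A C followed by at least 7 pyrimidines, with the C at most 20 bases before or after the start, was present in 32 of 63 members (50.8%) against 17.0% of the others. Annotated starts can be off by several bases, which the second count allows for, and all 9 starts printed here meet it.

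Over the whole RefSeq window, from 250 bases before to 50 after the start, the letters CCGGAAG, an ETS-type motif, were present on either strand in 26 of 63 members (41.3%) against 13.2% of other genes. AAGATGG, a YY1-type motif, was present on either strand in 10 members (15.9%) against 7.23%. GGGCGG, an SP1-type motif, was found on either strand in 39 members (61.9%) against 51.0%. TATAAA on the forward strand before the start was rare, in 2 members (3.17%) against 8.81% of other genes. A match of letters is a description of the sequence and was not tested for binding.

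In wild-type progenitors at P14 the members' mean levels summed to 33392 CPM. The 10 highest members held 66.4% of this sum, 46 of 83 had a mean of at least 100 CPM, and 63 had at least 10 CPM. Per kilobase of exon, the highest was Rpl32 with 2237 CPM per kb, and other high ones were Rpl4 (2040.5), Rpl8 (1484) and the stalk base Rplp0 (1159.5). At the other end of the scale were core members that every ribosome holds, such as Rpl24 (0.538 CPM per kb), Rpl23a (0.575), Rps12 (0.681), Rps13 (0.83) and Rps27 (1.10). Levels of core members thus spread over a wide range in these counts, although each is a standard part of the ribosome.

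The level of a member went with how much of its sequence is its own. Ribosomal protein genes have many processed pseudogenes (250 are annotated under names of these genes), and a read that fits several loci may be dropped or split by a counter. How such reads were treated is not given in the sources used here. For each member the share of 50-base words of its longest coding transcript that occur in no other annotated gene was computed. In wild type at P14, the 22 members with under 25% unique words had a median of 3.25 CPM per kb, the 23 with 25 to 50% had 51.7, the 25 with 50 to 75% had 136, and the 13 above 75% had 132. Spearman's rho between the 2 measures was 0.399 over 83 members at P14 and 0.403 at P0, as a description across genes that share libraries. Levels of members with little unique sequence are therefore uncertain.

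**Figure D1:**
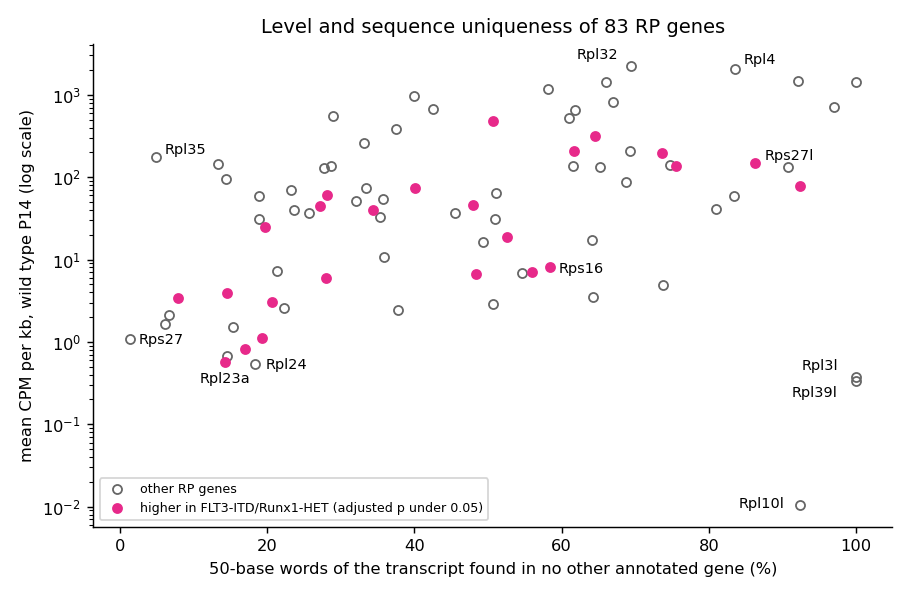
Mean level in wild type at P14 (CPM per kb, log axis) against the percent of 50-base words found in no other gene, 1 point per ribosomal protein gene, with the genes that were higher in FLT3-ITD/Runx1-HET filled. Apart from Rpl3l, Rpl39l and Rpl10l, the lowest levels are at the left, where little of the sequence is unique, and filled points lie among members with little and with much unique sequence.

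Several members have a paralog, and the pairs differed in which partner dominated. Rps27l stood at 148 CPM per kb in wild type at P14 and its partner Rps27 at 1.10. For the other pairs the canonical gene was the higher one, with Rpl22 at 136 and Rpl22l1 at 39.3, and with Rpl7 at 261 and Rpl7l1 at 132 CPM per kb. The tissue-restricted paralogs were near the bottom, with Rpl3l, the striated muscle form, at 0.376 against 95.3 for Rpl3, Rpl39l, a testis form, at 0.337 against 58.3 for Rpl39, and Rpl10l at 0.0105 against 3.45 for Rpl10. At P0 the order within each pair was the same, for example 219 for Rps27l against 1.51 CPM per kb for Rps27. Rps27l has 86.3% unique words and Rps27 1.35%, so the order of that pair may depend on how shared reads were counted, which was not tested.

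The members together took 2.96 to 3.84% of the counts of a P14 library (median 3.44%) and 3.43 to 6.06% of a P0 library (median 4.42%). At P14 the mean share was 3.39 ± 0.314% in wild type, 3.45 ± 0.178% in FLT3-ITD, 3.18 ± 0.15% in NHD13, 3.52 ± 0.247% in Runx1-HET, 3.40 ± 0.144% in FLT3-ITD/NHD13 and 3.57 ± 0.108% in FLT3-ITD/Runx1-HET (SD, n = 4 each). The wild-type libraries were at 3.69, 3.03, 3.22 and 3.61%, a range that holds the mean of every mutant group. NHD13 libraries were the lowest group at 3.25, 2.96, 3.30 and 3.19%. Their range overlapped wild type. The 95% Wilson interval of a library's share was at most 0.0225 percentage points wide and covers counting error only, so the spread between libraries was far larger than counting error.

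At P0 the share was 4.43, 4.11, 3.43 and 4.46% in the 4 wild-type libraries, 4.80, 3.67, 4.72 and 4.93% in FLT3-ITD and 4.40, 6.06, 3.73 and 3.53% in FLT3-ITD/NHD13. The second FLT3-ITD/NHD13 library stood apart with the highest share of all 36 libraries. It was the highest of the 12 P0 libraries for 42 members and the lowest for 7. Its members did not move as a block, since Rps26 was at 302, 579, 298 and 255 CPM and Rpl38 at 22.1, 51.7, 22.0 and 17.3 CPM over the 4 libraries, while Rpl13 was at 72.1, 44.3, 53.2 and 62.3 and Rps23 at 20.4, 4.62, 11.7 and 12 CPM. The second library was the highest of its group for Rps26 and Rpl38 and the lowest for Rpl13 and Rps23. In the same library mitochondrial transcripts took 0.807% of counts, against 1.27 to 2.26% in the other P0 libraries, and summed erythroid markers reached 605 CPM against 169 to 549 CPM. Their part in its ribosomal protein levels was not tested.

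**Figure D2:**
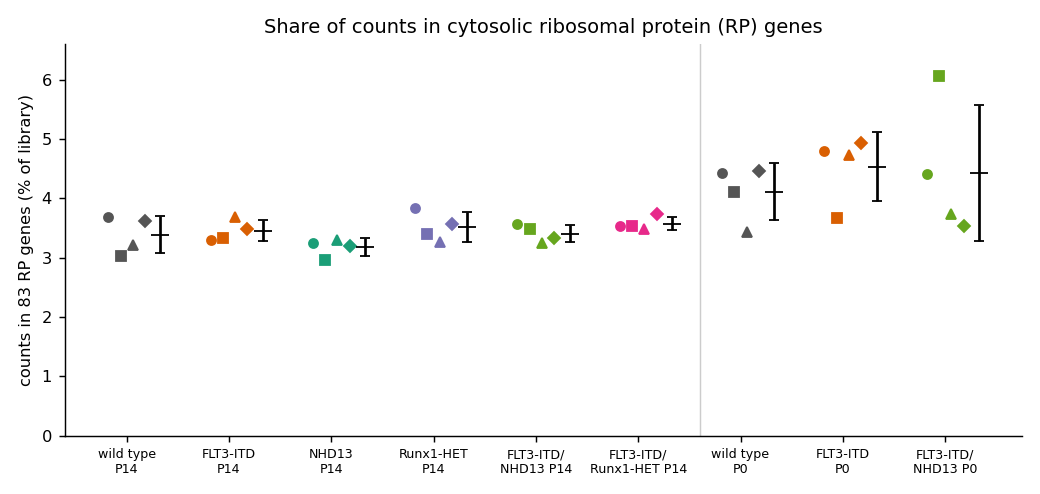
Percent of a library's counts in the 83 ribosomal protein genes, 1 marker per library by replicate number, bars at the mean and SD of 4 libraries, for 6 groups at P14 and 3 at P0. P14 libraries lie between 2.96 and 3.84%, and each P14 mutant group overlaps wild type. NHD13 (2.96 to 3.30%) and FLT3-ITD/Runx1-HET (3.49 to 3.73%) do not overlap each other. At P0, 1 FLT3-ITD/NHD13 library reaches 6.06%.

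Wild-type means were higher at P0 than at P14 for 64 of 83 members. The 2 ages are in separate count tables and the labels do not separate age from sequencing run, so these levels cannot be told apart by age and run. Below, each age is therefore compared with its own wild type.

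With FLT3-ITD alone at P14, most members lay slightly above wild type and only Rps27l rose. 70 of 82 members had a log2 fold change above 0 (48.3% of all tested genes did), and the members' median was 0.10 against -0.01 over all tested genes. Of the 82, 1 member was called, against 8.60% of all tested genes called in either direction and 3.84% called higher. As a share, 1 of 82 is below both of these background values. At an unadjusted p under 0.05 there were 3 (21.2% of all tested genes), and DESeq2 called 1. Leaving out 1 library put the median between 0.04 and 0.16, lowest without wild-type library 2 and highest without wild-type library 1. Markers of cell types differed between the same groups. The 6 granulocyte and monocyte markers summed to 1802 to 2285 CPM in FLT3-ITD and 689 to 956 CPM in wild type, the 7 erythroid markers to 39.1 to 47.1 and 102 to 124 CPM, and the 4 T and NK markers to 2.55 to 7.58 and 26.7 to 32.2 CPM (lowest to highest library). Their part in the ribosomal protein levels was not tested.

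Rps27l encodes a variant of the small subunit protein eS27 and is a known p53 target. It lies at chr9:66946086-66949516 on the forward strand (GRCm38, whole gene), and its promoter window is among those printed above, with a G at the annotated start. Its level was 145, 109.6, 103 and 125 CPM in the 4 wild-type libraries and 146, 151, 185 and 163 CPM in those of FLT3-ITD. Every FLT3-ITD library was above every wild-type library, though the gap between the highest wild-type and the lowest FLT3-ITD value was small. The log2 fold change was 0.42 ± 0.12 (SE; adjusted p = 0.0192). The call was lost without the third FLT3-ITD library (adjusted p = 0.0894), without the second wild-type library (0.066) and without the third wild-type library (0.105). Rpl28, a large subunit protein, had 30.6, 39.7, 30.4 and 37.7 CPM in wild type and 35.7, 52.8, 39.0 and 38.1 CPM in FLT3-ITD, with a log2 fold change of 0.26 ± 0.11 (SE; adjusted p = 0.147), and its groups overlapped. Rps27l and Rpl36a were the 2 of 82 members with every FLT3-ITD library above every wild-type library, and 5.11% of all tested genes showed this. Rpl36a had 6.80, 6.34, 6.03 and 6.49 CPM in wild type and 7.45, 7.79, 8.72 and 6.89 CPM in FLT3-ITD, with a log2 fold change of 0.27 ± 0.16 (SE; adjusted p = 0.374).

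**Figure D3:**
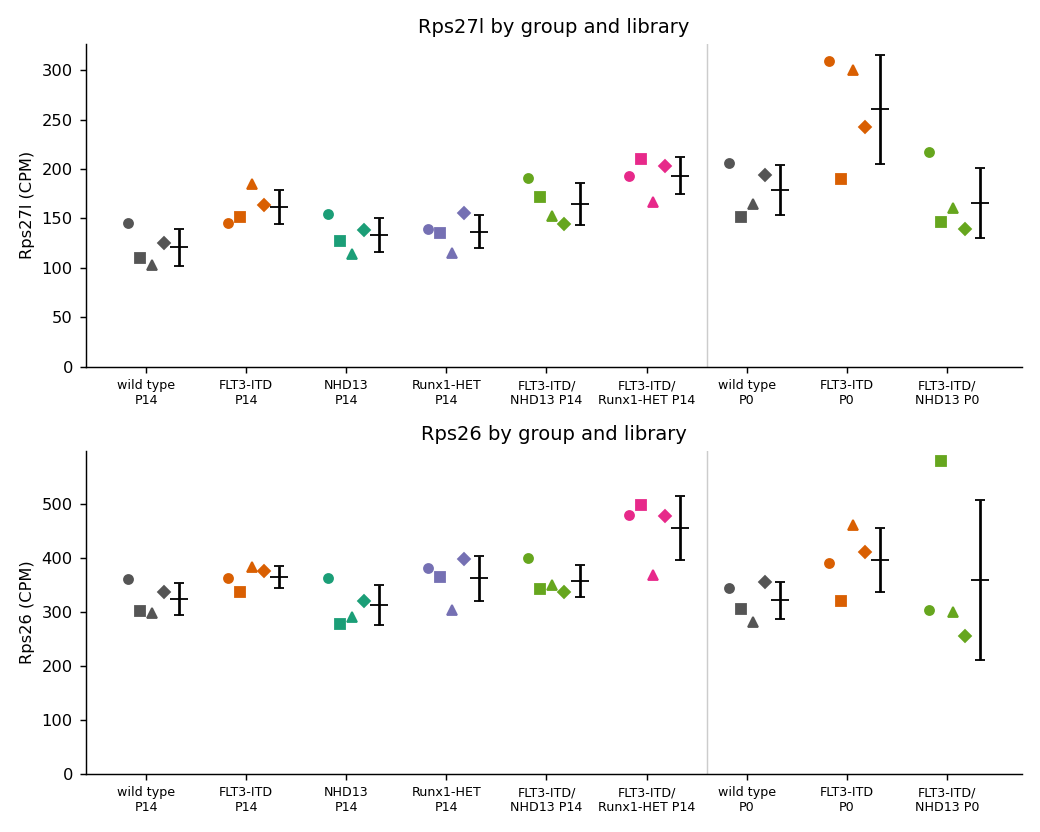
Level of Rps27l and Rps26 (CPM) in each of the 36 libraries, 1 marker per library by replicate number, with the mean and SD of each group of 4. The mean of Rps27l is above wild type in all 5 P14 mutant groups, and the gene was called in the 3 that carry FLT3-ITD. Rps26 reaches 579 CPM in 1 FLT3-ITD/NHD13 library at P0.

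NHD13 alone was the P14 genotype in which most members lay below wild type, and none of them passed the test. 27 of 82 members had a log2 fold change above 0 (48.6% of all tested genes did), and the members' median was -0.05 against -0.01 over all tested genes. Leaving out 1 library put this median between -0.09 and 0.01, and it was above 0 without wild-type library 1 alone. The 3 megakaryocyte markers summed to 259 to 937 CPM in NHD13 and 73.8 to 95.9 CPM in wild type. Erythroid markers summed to 159 to 220 against 102 to 124 CPM, and T and NK markers to 2.65 to 3.08 against 26.7 to 32.2 CPM. Progenitor markers summed to 3974 to 4601 against 4920 to 6483 CPM, and the other marker lists overlapped wild type. The part of these markers in the ribosomal protein levels was not tested. edgeR called 0 of 82, with 2 at an unadjusted p under 0.05 (26.5% of all tested genes), and DESeq2 called 0, while 15.9% of all tested genes were called. The members nearest to the threshold were Rpl14, with a log2 fold change of -0.22 ± 0.09 (SE; adjusted p = 0.0843), and Rps4x, the X-linked gene for eS4, with -0.17 ± 0.07 (SE; adjusted p = 0.0845). Rps4x had 210.2, 193, 216 and 220.0 CPM in wild type and 191, 178, 188 and 185 CPM in NHD13. All 4 NHD13 libraries were below all 4 wild-type libraries for Rps4x, and no other member had this separation, which 9.37% of all tested genes had.

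Runx1-HET alone also left the members without a call. 77 of 82 members had a log2 fold change above 0 (48.7% of all tested genes did), and the members' median was 0.10 against -0.005 over all tested genes. With 1 library left out the median lay between 0.05 and 0.15. edgeR called 0 members, with 1 at an unadjusted p under 0.05 (8.91% of all tested genes), and DESeq2 called 0. The 1 was Rps3a1, with -0.35 ± 0.13 (SE; adjusted p = 0.371). Few genes of any kind were called in this comparison (0.778% of those tested). Rps27l was at 139, 135, 115 and 156 CPM in Runx1-HET and 155, 127, 114 and 138 CPM in NHD13, and both sets overlapped wild type.

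In FLT3-ITD/NHD13 at P14 the result was again a rise of Rps27l. 69 of 82 members had a log2 fold change above 0 (50.5% of all tested genes did), and the members' median was 0.11 against 0.004 over all tested genes. Leaving out 1 library gave medians between 0.07 and 0.20, the highest without wild-type library 1. Of 82 members, 1 was called, against 22.4% of all tested genes in either direction and 10.2% higher, and 8 had an unadjusted p under 0.05 (33.2% of all tested genes). Rps27l was at 191, 171, 152 and 144 CPM, and its log2 fold change against wild type was 0.45 ± 0.12 (SE; adjusted p = 0.00492). Its lowest FLT3-ITD/NHD13 library lay just under the highest wild-type library. DESeq2 called 2 members. Rps23, which forms part of the decoding centre, came next with 0.54 ± 0.20 (SE; adjusted p = 0.054), then Rpl28 with 0.26 ± 0.11 (SE; adjusted p = 0.0847).

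Compared with NHD13 alone, most members lay higher in FLT3-ITD/NHD13, and none was called. 79 of 82 members had a log2 fold change above 0 (50.7% of all tested genes did), and the members' median was 0.17 against 0.004 over all tested genes. Per library, the members' mean log2 CPM was 6.29 ± 0.14 in FLT3-ITD/NHD13 and 6.11 ± 0.12 in NHD13 (SD, n = 4 each). edgeR called 0 of 82, with 13 at an unadjusted p under 0.05 (18.6% of all tested genes), DESeq2 called 0, and 6.24% of all tested genes were called. In 8 members (Rpl7, Rpl7a, Rpl11, Rpl27, Rpl27a, Rpl28, Rpl34 and Rps4x) every FLT3-ITD/NHD13 library was above every NHD13 library, or 8 of 82, while 6.26% of all tested genes showed this. Rpl27a had 44.2, 45.1, 41.8 and 42.3 CPM in NHD13 and 57.4, 57.1, 48.0 and 49.4 CPM in FLT3-ITD/NHD13, with a log2 fold change of 0.29 ± 0.10 (SE; adjusted p = 0.0802). Set against FLT3-ITD alone, 48 of 82 were above 0 with a median of 0.02 (all tested genes: 50.9% above 0, median 0.01). There edgeR called 0 with 0 at an unadjusted p under 0.05 (24.3% of all tested genes), DESeq2 called 0, and 13.5% of all tested genes were called.

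FLT3-ITD/Runx1-HET was the genotype in which ribosomal protein genes rose in number. 72 of 82 members had a log2 fold change above 0 (47.3% of all tested genes did), and the members' median was 0.21 against -0.02 over all tested genes. Of 82 members, 24 were called, all of them higher, where 22.7% of all tested genes were called in either direction and 10.7% higher. The 24 were 13 of 32 tested small subunit and 11 of 50 tested large subunit genes. At an unadjusted p under 0.05 there were 40 (35.0% of all tested genes), and DESeq2 called 31. The share of all tested genes that DESeq2 called is not given here, so the 31 have no background to be read against.

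Among the called members Rpl23a, Rps16, Rps13 and Rpl38 had some of the largest fold changes. Rps16, a small subunit protein near the decoding site, had 14.4, 7.26, 8.35 and 10.7 CPM in wild type and 21.5, 31.5, 12.6 and 23.2 CPM in FLT3-ITD/Runx1-HET, with a log2 fold change of 1.12 ± 0.28 (SE; adjusted p = 0.0048). Rpl38, needed for the translation of Hox messages in embryos, had 32.5, 22.2, 21.5 and 22.5 CPM and 46.6, 63.3, 27.2 and 49.6 CPM, with 0.92 ± 0.24 (SE; adjusted p = 0.00765). Of their words 58.4% and 47.9% are unique. In both genes FLT3-ITD/Runx1-HET libraries 1, 2 and 4 were above all wild-type libraries and library 3 was not. Rpl23a, at the exit of the peptide tunnel, was at 0.705, 0.307, 0.517 and 0.418 CPM in wild type and 1.60, 3.0, 0.448 and 0.938 CPM in FLT3-ITD/Runx1-HET, with 1.59 ± 0.52 (SE; adjusted p = 0.0265). These are low levels, and 14.3% of its 50-base words are unique. Rps13, with 17.0% unique words, had 2.92, 1.99, 2.20 and 1.81 CPM and 4.53, 7.30, 2.19 and 4.98 CPM, with 1.08 ± 0.33 (SE; adjusted p = 0.0195). Library 3 was again the lowest of the mutant group in both Rpl23a and Rps13.

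At the other end of the called members were abundant genes with small shifts, namely Rpl41 (0.35 ± 0.11, adjusted p = 0.0214), Rpl14 (0.32 ± 0.09, adjusted p = 0.00683), Rps21 (0.31 ± 0.10, adjusted p = 0.0235), Rps20 (0.27 ± 0.10, adjusted p = 0.046) and Rpl22 (0.20 ± 0.07, adjusted p = 0.043). Rpl22, which binds RNA and is a tumor suppressor in T-cell leukemia, had 427, 375, 373 and 412 CPM in wild type and 449, 476, 423 and 471 CPM. Its paralog Rpl22l1, known to be repressed by Rpl22 protein, was called as well, at 106, 66, 65.9 and 75.1 CPM in wild type and 111, 139.5, 106 and 126 CPM, with a log2 fold change of 0.62 ± 0.18 (SE; adjusted p = 0.0123). Both partners of the pair were thus higher in the same comparison.

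The members with the smallest adjusted p were Rps27l, Rps26 and Rpl28. Rps27l was at 193, 210.1, 167 and 203 CPM, above every wild-type library, with a log2 fold change of 0.68 ± 0.12 (SE; adjusted p = 7.46e-05). Rps26, a Diamond-Blackfan anemia gene whose protein sits at the exit of the messenger RNA channel, had 359.6, 301, 297 and 336 CPM in wild type and 479, 498, 368 and 477 CPM in FLT3-ITD/Runx1-HET, with 0.49 ± 0.10 (SE; adjusted p = 0.000488). Its library 3 was the lowest of the group and still above all wild-type libraries. Rpl28 had 30.6, 39.7, 30.4 and 37.7 CPM and 46.6, 46.8, 45.9 and 50.6 CPM, with 0.46 ± 0.11 (SE; adjusted p = 0.00246). The windows of all 3 are printed above. That of Rpl28 has the tract at the first base, and those of Rps27l and Rps26 have a run of pyrimidines near a start annotated at a G.

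Complete separation of the 2 groups was seen in fewer members than were called. Of the 24 called members, 6 (Rps23, Rps27l, Rpsa, Rps26, Rpl36a and Rpl28) had every FLT3-ITD/Runx1-HET library above every wild-type library. With Rpl35a, which was not called, this makes 7 of 82 members, while 8.62% of all tested genes were separated in this direction. Rpsa, the laminin receptor protein of the small subunit, was among the 6, at 24.5, 20.2, 21.6 and 22.0 CPM in wild type and 30.9, 37.6, 24.9 and 32.2 CPM, with 0.51 ± 0.15 (SE; adjusted p = 0.0161).

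The libraries of this group did not contribute alike. In all 24 called members FLT3-ITD/Runx1-HET library 3 was the lowest of its group and libraries 1, 2 and 4 were above every wild-type library. Library 2 was the highest of the group in 18 of the 24. Library 3 was above the wild-type mean in 19. Among the wild-type libraries, the first was the highest in 23. The count of calls changed accordingly when 1 library was left out. Without FLT3-ITD/Runx1-HET library 1, 2, 3 or 4 it was 13, 10, 35 and 15, and without wild-type library 1, 2, 3 or 4 it was 37, 13, 10 and 22. The share of all tested genes called in these fits is not given here. Of the 35 and of the 13 without wild-type library 2, 1 and 2 members were called lower, and all others were higher. The members' median stayed between 0.17 and 0.26 on the log2 scale in these 8 fits. The calls of Rpl23a and Rps13 were lost without FLT3-ITD/Runx1-HET library 2 and without wild-type library 2, 3 or 4, and that of Rpl23a also without FLT3-ITD/Runx1-HET library 1 (adjusted p = 0.0521 to 0.187 for Rpl23a and 0.0503 to 0.113 for Rps13).

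Other measures moved with the same libraries. Ribosomal protein pseudogenes took 0.0300, 0.0348, 0.0196 and 0.0320% of counts in FLT3-ITD/Runx1-HET libraries 1 to 4, against 0.0167 to 0.0256% in the other P14 libraries. The cardiac myosin gene Myh6, chosen after its values were seen, was at 73.9, 156, 21.1 and 81.3 CPM in these libraries against 13.7 to 41.3 CPM in the others, and the sarcomere gene Ttn, chosen likewise, at 131, 307, 38.5 and 153 CPM against 26.1 to 81.4 CPM. Library 3 was the lowest of the group for the pseudogenes and for both genes. The 6 granulocyte and monocyte markers summed to 981, 1987, 3509 and 1293 CPM, highest in library 3, against 617 to 2285 CPM elsewhere. The 5 macrophage and dendritic markers, all found, summed to 146 to 216 CPM in this group against 10.7 to 57.1 CPM elsewhere, mostly from Adgre1 and Clec10a, while Siglech was at 0. The 7 erythroid markers summed to 223, 179, 129.6 and 223 CPM, lowest in library 3, against 102 to 124 CPM in wild type, and all 24 P14 libraries ranged from 39.1 to 223 CPM. Mitochondrial transcripts took 1.98, 2.23, 1.77 and 2.22% of counts, again lowest in library 3. They took 2.05, 1.54, 1.31 and 1.17% in wild-type libraries 1 to 4, where library 1 was the highest. All P14 libraries outside this group ranged from 1.08 to 2.38%, which holds every value of the group. The 5 B cell markers summed to 104 to 133 CPM against 146 to 392 CPM in the other P14 libraries. The 4 T and NK markers summed to 0.0613 to 0.566 CPM against 1.54 to 32.2 CPM. The part of any of these in the ribosomal protein calls was not tested.

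**Figure D4:**
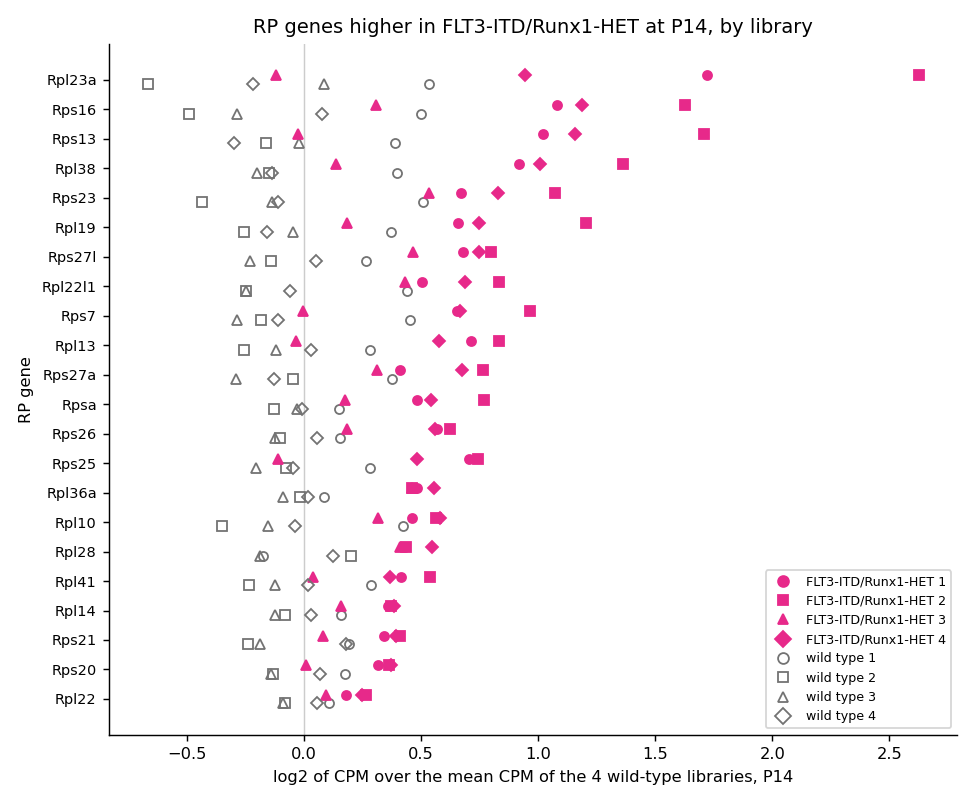
Of the 24 ribosomal protein genes higher in FLT3-ITD/Runx1-HET than in wild type at P14, the 22 named here, with the log2 ratio of each of the 8 libraries to the wild-type mean (filled markers FLT3-ITD/Runx1-HET, open markers wild type, shape by replicate number). In every row library 3 of FLT3-ITD/Runx1-HET is the leftmost filled marker.

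Calls were spread over members with little and with much unique sequence. Of members with under 25% unique words 7 of 22 were called, with 25 to 50% 7 of 23, with 50 to 75% 7 of 25 and above 75% 3 of 12. The median log2 fold changes were 0.38, 0.18, 0.20 and 0.09 in this order. Over the 37 members with at least 50% unique words the median was 0.16 and 10 were called, and over the 45 others it was 0.22 and 14 were called. The member with the lowest fold change was the testis form Rpl39l, at 0.236, 0, 0.0498 and 0.293 CPM against 0.101, 0.205, 0.258 and 0.558 CPM in wild type (-0.84 ± 0.87, adjusted p = 0.524). No member was called lower.

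**Figure D5:**
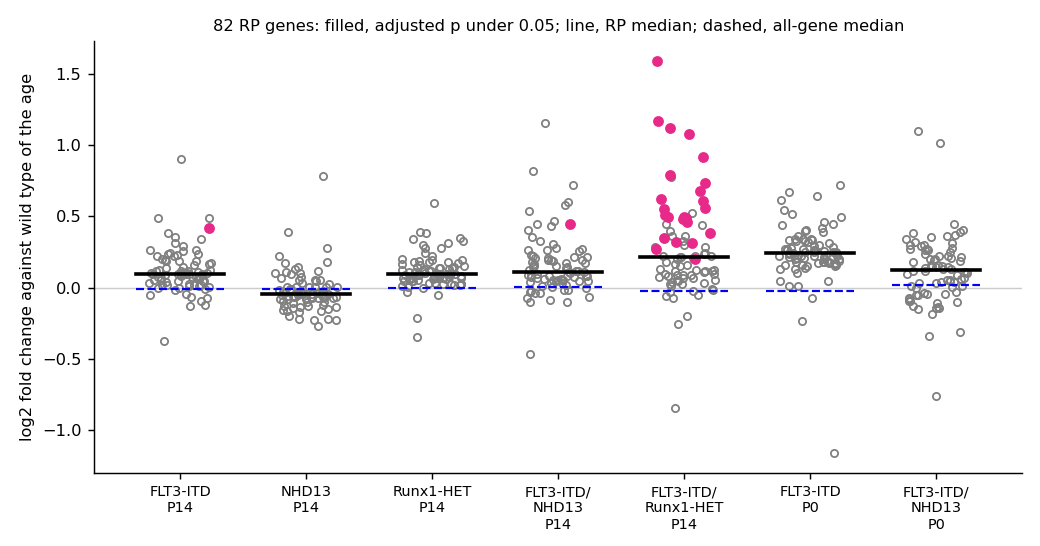
Log2 fold change against the wild type of the same age for the 82 tested ribosomal protein genes in 7 comparisons, 1 point per gene, filled where the adjusted p is under 0.05, with a solid line at the members' median and a dashed line at that of all tested genes. FLT3-ITD/Runx1-HET has 24 filled points, FLT3-ITD and FLT3-ITD/NHD13 at P14 have 1 each, and the other comparisons have none.

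Against the single mutants, few of these members were called. Against FLT3-ITD alone, 60 of 82 were above 0 with a median of 0.13 (all tested genes: 47.7% and -0.01), and 1 was called, against 7.20% of all tested genes. This was Rps26, at 363, 335, 384 and 375 CPM in FLT3-ITD, with a log2 fold change of 0.32 ± 0.10 (SE; adjusted p = 0.0417). Against Runx1-HET alone, 61 of 82 were above 0 with a median of 0.12 (all tested genes: 49.3% and -0.005), and 3 were called, all higher, against 14.9% of all tested genes. Among them were Rps27l (0.50 ± 0.12, adjusted p = 0.00263) and Rps26 (0.33 ± 0.10, adjusted p = 0.0188). DESeq2 called 2 and 6 members in these comparisons, and 19 had an unadjusted p under 0.05 in each (21.1% and 26.9% of all tested genes). The counts ranged from 0 to 14 and from 1 to 12 when 1 library was left out. Rps26 lost its call against FLT3-ITD without any 1 of the 4 FLT3-ITD libraries and without FLT3-ITD/Runx1-HET library 1, 2 or 4 (adjusted p = 0.0526 to 0.143). Against Runx1-HET it was lost for Rps26 without FLT3-ITD/Runx1-HET library 1, 2 or 4 or Runx1-HET library 3 (adjusted p = 0.0534 to 0.0998).

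Interaction terms ask whether the double mutant differs from the sum of the single effects on the log2 scale. For FLT3-ITD with Runx1-HET, edgeR called 0 of 82 members, with 0 at an unadjusted p under 0.05 (11.4% of all tested genes), and DESeq2 called 0. The members' median was 0.04, 47 of 82 were above 0 (50.9% of all tested genes were), and 1.68% of all tested genes were called. For FLT3-ITD with NHD13 edgeR called 0, with 0 at an unadjusted p under 0.05 (8.96% of all tested genes), and DESeq2 called 0. The median was 0.06, 61 of 82 were above 0 (51.8% of all tested genes were), and 0.535% of all tested genes were called. For Rps27l the terms were 0.08 ± 0.16 (SE; adjusted p = 0.909) with Runx1-HET and -0.12 ± 0.16 (SE; adjusted p = 0.92) with NHD13, and for Rps26 with Runx1-HET the term was 0.16 ± 0.14 (SE; adjusted p = 0.73). A difference from additivity was not detectable in these genes with 4 libraries a group.

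At birth nearly all members lay above wild type in FLT3-ITD, and none was called. 79 of 82 members had a log2 fold change above 0 (47.3% of all tested genes did), and the members' median was 0.24 against -0.02 over all tested genes. edgeR called 0 of 82, with 9 at an unadjusted p under 0.05 (10.2% of all tested genes), DESeq2 called 0, and 0.0139% of all tested genes were called. Rpl28 was at 43.3, 39.6, 29.0 and 48.8 CPM in wild type and 63.4, 59.5, 59.3 and 68.9 CPM in FLT3-ITD, with a log2 fold change of 0.64 ± 0.20 (SE; adjusted p = 0.329). Its groups did not overlap, which was also so for Rpl21 and Rpl29, or 3 of 82 members, and 5.51% of all tested genes were separated in this way. Rps27l was at 206, 151, 164 and 194 CPM in wild type and 309, 189.7, 299.9 and 242 CPM, with 0.54 ± 0.18 (SE; adjusted p = 0.352). The second FLT3-ITD library lay within the wild-type range. Wild-type library 2 stood apart in other genes. Its 3 hepatocyte markers summed to 363 CPM, with Alb at 197 CPM, and its 5 mature neutrophil markers to 65.0 CPM, against at most 34.8 and 4.01 CPM in the other P0 libraries. Without it edgeR called 0 members and the median was 0.23, and over all leave-outs of 1 library the median lay between 0.19 and 0.33. The spread between P0 libraries was larger than at P14, with a biological coefficient of variation of 0.301 against 0.164.

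In FLT3-ITD/NHD13 at P0 no member was called against wild type. 61 of 82 members had a log2 fold change above 0 (52.1% of all tested genes did), and the members' median was 0.12 against 0.02 over all tested genes. edgeR called 0, with 0 at an unadjusted p under 0.05 (11.2% of all tested genes), DESeq2 called 0, and 2.08% of all tested genes were called. When the second library, with the 6.06% share, was left out, edgeR again called 0 and the median was -0.05. Set against FLT3-ITD of the same age, 20 of 82 members were above 0, with a median of -0.13 (all tested genes: 52.9% and 0.03). This median lay between -0.32 and -0.02 when 1 library was left out, nearest to 0 without FLT3-ITD/NHD13 library 4 and farthest without FLT3-ITD/NHD13 library 2. There edgeR called 0 with 9 at an unadjusted p under 0.05 (15.7% of all tested genes), DESeq2 called 3, all lower, and 2.88% of all tested genes were called.

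Rps27l was again nearest to the threshold in that comparison. It was at 217, 146, 160.3 and 139 CPM in FLT3-ITD/NHD13 at P0, and its log2 fold change against FLT3-ITD was -0.65 ± 0.18 (SE; adjusted p = 0.0675). The first FLT3-ITD/NHD13 library overlapped the FLT3-ITD range and the others did not. With DESeq2 its adjusted p was 0.0194. Rpl28, at 40.7, 39.7, 49.2 and 25.4 CPM, and Rpl27 were the 2 members of 82 with every FLT3-ITD/NHD13 library below every FLT3-ITD library, which 3.78% of all tested genes showed. Their log2 fold changes were -0.70 ± 0.20 (SE; adjusted p = 0.0765) and -0.59 ± 0.21 (SE; adjusted p = 0.182).

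Whether an effect differed between the ages was tested in a joint fit, each age against its own wild type. For FLT3-ITD (P14 minus P0) 16 of 82 members were above 0 and the median difference was -0.16 (all tested genes: 48.1% and -0.02). edgeR called 0 with 1 at an unadjusted p under 0.05 (7.62% of all tested genes), DESeq2 called 0, and 0.194% of all tested genes were called. For FLT3-ITD/NHD13 44 were above 0 with a median of 0.04 (all tested genes: 51.2% and 0.01), and edgeR called 0 with 3 at an unadjusted p under 0.05 (16.8% of all tested genes), DESeq2 called 0, and 3.91% of all tested genes were called. Rps27l had the smallest adjusted p of the members there, with a difference of 0.58 ± 0.21 (SE; adjusted p = 0.117). Run and age cannot be told apart in these differences.

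By role, the stalk of the large subunit, which recruits elongation factors, had no call. Rplp0 was at 1925, 1774, 1914 and 2082 CPM in wild type and 1778, 1696, 1986 and 1943 CPM in FLT3-ITD/Runx1-HET at P14 (-0.06 ± 0.08, adjusted p = 0.68). The fold changes of Rplp1 and Rplp2 in that comparison were 0.11 ± 0.08 (SE; adjusted p = 0.352) and 0.12 ± 0.08 (SE; adjusted p = 0.287). None of the 3 was called in any of the 16 comparisons.

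The 5S particle proteins that bind MDM2 were not called in any comparison either, and both have little sequence of their own (6.16% and 37.8% unique words in Rpl5 and Rpl11). Rpl5 was at 8.11, 7.16, 4.95 and 5.30 CPM in wild type and 10.5, 11.7, 7.72 and 6.86 CPM in FLT3-ITD/Runx1-HET (0.52 ± 0.25, adjusted p = 0.141). Rpl11 was at 7.85, 6.29, 5.12 and 6.83 CPM in wild type, 5.13, 5.51, 5.39 and 6.34 CPM in NHD13 and 8.83, 6.92, 7.48 and 6.95 CPM in FLT3-ITD/NHD13. All FLT3-ITD/NHD13 libraries were above all NHD13 libraries for Rpl11, and the log2 fold change was 0.43 ± 0.16 (SE; adjusted p = 0.129).

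Of the 20 Diamond-Blackfan anemia genes in the list, all tested, 4 were called in FLT3-ITD/Runx1-HET against wild type (all higher, Rps7, Rps20 and Rps26 among them) and their median was 0.24, against 0.21 over all members. Of all tested genes 10.7% were called higher there, and 4 of 20 were called in the list and 24 of 82 among all members. Rps26 was the 1 gene of the list called against the single mutants, and none was called in the other comparisons. In those the share of all tested genes called ran from 0.0139% (FLT3-ITD at P0) to 22.4% (FLT3-ITD/NHD13 at P14), each against wild type. Rps19, the gene most often mutated in that disease, was at 823, 583, 603 and 649.6 CPM in wild type and 842, 889, 656 and 849 CPM in FLT3-ITD/Runx1-HET (0.28 ± 0.11, adjusted p = 0.0703). Rps14, of the 5q- region, was at 1741, 1353, 1452 and 1685 and 1515, 1619, 1608 and 1782 CPM (0.07 ± 0.09, adjusted p = 0.646). Rps6, whose phosphorylation is the usual readout of mTOR activity, has 15.4% unique words and was at 2.37, 2.61, 2.02 and 2.72 and 3.49, 3.68, 2.04 and 3.98 CPM (0.44 ± 0.25, adjusted p = 0.208), and its groups overlapped. Neither Rps19, Rps14 nor Rps6 was called in any comparison.

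Of the other paralog pairs, Rpl10 was called in FLT3-ITD/Runx1-HET, with a log2 fold change of 0.48 ± 0.17 (SE; adjusted p = 0.0399) and 7.87% unique words, and its partner Rpl10l was not tested. Rpl7 and Rpl7l1 had log2 fold changes of 0.12 ± 0.07 (SE; adjusted p = 0.219) and 0.09 ± 0.09 (SE; adjusted p = 0.529) in FLT3-ITD/Runx1-HET. Rpl3 had one of -0.03 ± 0.07 (SE; adjusted p = 0.844) and Rpl3l one of -0.01 ± 0.52 (SE; adjusted p = 0.991), the latter at 3 to 25 counts a library at P14. Rps27 fell short of a call in every comparison, with -0.06 ± 0.35 (SE; adjusted p = 0.933) here, and Rpl39 was at 0.30 ± 0.11 (SE; adjusted p = 0.0513). The gene Rps4l, which GENCODE M21 classes as a transcribed pseudogene and which therefore is not a member, fell in FLT3-ITD/Runx1-HET, with a log2 fold change of -0.68 ± 0.19 (SE; adjusted p = 0.0107), while Rps4x had 0.05 ± 0.07 (SE; adjusted p = 0.676).

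Of 5 further proteins of the cytosolic ribosome outside the rule, 3 were called higher and 0 lower in FLT3-ITD/Runx1-HET. These were Fau (0.62 ± 0.18, adjusted p = 0.0144), whose product is cleaved into a small subunit protein, Rps27rt (0.65 ± 0.22, adjusted p = 0.0298), a retrogene copy of Rps27, and Rpl36al (0.44 ± 0.10, adjusted p = 0.00117). Of all tested genes 10.7% were called higher there. In FLT3-ITD/NHD13 at P14 Rpl36al was called with 0.30 ± 0.10 (SE; adjusted p = 0.0233). Rack1, a scaffold protein of the small subunit, was not called in any comparison with wild type.

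Other translation genes have TOP messages too, elongation factors among them. Of 24 in the list 22 were tested, and FLT3-ITD at P14 had 3 called higher and 0 lower, namely Npm1 (0.35 ± 0.09, adjusted p = 0.00937), a nucleolar chaperone of ribosome assembly, Eef1d (0.27 ± 0.07, adjusted p = 0.0136) and Eef1g (0.28 ± 0.07, adjusted p = 0.0103). FLT3-ITD/NHD13 had Npm1 higher (0.39 ± 0.09, adjusted p = 0.00121) and the initiation factor Eif4b lower (-0.25 ± 0.08, adjusted p = 0.0319). FLT3-ITD/Runx1-HET had 6 higher and 0 lower, with Hnrnpa1 (0.59 ± 0.14, adjusted p = 0.00195), Npm1 (0.49 ± 0.09, adjusted p = 0.000118) and Naca (0.46 ± 0.12, adjusted p = 0.00458) the largest. Among all tested genes 8.60%, 22.4% and 22.7% were called in either direction in these 3 comparisons, in this order, next to 3, 2 and 6 of the 22 in the list. In NHD13 alone edgeR called none of these genes, next to 15.9% of all tested genes. It also called none in Runx1-HET alone and at P0, where few genes of any kind were called. The shares there were 0.778% in Runx1-HET and 0.0139 to 2.88% at P0. Against single mutants at P14, 2 were called lower in FLT3-ITD/NHD13 against FLT3-ITD (13.5% of all tested genes). In FLT3-ITD/Runx1-HET against Runx1-HET 2 were called higher (14.9% of all tested genes).

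A further list held regulators of ribosomal protein output together with genes of the p53 pathway. Of the latter, the p53 target Cdkn1a, an inhibitor of cyclin-dependent kinases, was called in 4 of the 5 P14 mutant groups, in differing directions. Of the genes of this list that were tested, Cdkn1a included, 3 of 14 higher and 0 lower in FLT3-ITD, 1 of 14 higher and 1 lower in NHD13, 0 of 14 higher and 0 lower in Runx1-HET, 3 of 14 higher and 0 lower in FLT3-ITD/NHD13 and 2 of 14 higher and 1 lower in FLT3-ITD/Runx1-HET passed the test. Of all tested genes 8.60%, 15.9%, 0.778%, 22.4% and 22.7% were called in either direction, in the same order. The log2 fold change of Cdkn1a was 2.14 ± 0.19 (SE; adjusted p = 6.76e-09) in FLT3-ITD, -1.77 ± 0.21 (SE; adjusted p = 2.33e-07) in NHD13, 1.03 ± 0.19 (SE; adjusted p = 0.000116) in FLT3-ITD/NHD13 and 2.24 ± 0.19 (SE; adjusted p = 5.45e-10) in FLT3-ITD/Runx1-HET. Mycn rose in the 3 P14 groups with FLT3-ITD, by 0.60 ± 0.17 (SE; adjusted p = 0.0284), 1.03 ± 0.17 (SE; adjusted p = 5.70e-05) and 0.82 ± 0.17 (SE; adjusted p = 0.00102) in FLT3-ITD, FLT3-ITD/NHD13 and FLT3-ITD/Runx1-HET. Myc rose in FLT3-ITD (0.45 ± 0.13, adjusted p = 0.0258), and its interaction term with Runx1-HET was -0.77 ± 0.18 (SE; adjusted p = 0.0237). The translation inhibitor Pdcd4 rose in NHD13 (0.78 ± 0.14, adjusted p = 0.00018) and FLT3-ITD/NHD13 (0.49 ± 0.14, adjusted p = 0.011), and Mdm2 fell in FLT3-ITD/Runx1-HET (-0.33 ± 0.10, adjusted p = 0.0148).

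The genes for the proteins of the mitochondrial ribosome, a separate set under other control, gave 7 of 75 higher and 1 lower in FLT3-ITD, 2 of 75 higher and 1 lower in NHD13, 0 of 75 higher and 0 lower in Runx1-HET, 18 of 75 higher and 0 lower in FLT3-ITD/NHD13 and 18 of 75 higher and 0 lower in FLT3-ITD/Runx1-HET at P14. Among all tested genes 8.60%, 15.9%, 0.778%, 22.4% and 22.7% were called in either direction, in this order. Called higher were 3.84% in FLT3-ITD, and 10.2% and 10.7% in the last 2 comparisons. The medians of the mitochondrial set in the last 2 were 0.16 and 0.14, next to 0.11 and 0.21 for the cytosolic members. In FLT3-ITD at P0 all 76 of 76 tested were above 0 with a median of 0.30. None was called there, where 0.0139% of all tested genes were called.

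Across the 24 P14 libraries most members varied together. The correlation of a member's log2 CPM with the mean of the other members was 0.956 for Rpl41, 0.95 for Rpl26, 0.95 for Rps19 and 0.946 for Rpl22. It was -0.129 for Rpl18. The 5 other genes most like the members' mean at P14 were Naca (Pearson r = 0.945), Gm15427 (0.937), Tomm7 (0.934), Sem1 (0.928) and Cox6c (0.926). At P0, over 12 libraries, they were Psmb1 (0.970), Snrpg (0.967), Gm10076 (0.963), Ufc1 (0.963) and Cyba (0.961). These are descriptions over libraries that share groups, depth and preparation.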

How the data were processed

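Read counts per Ensembl gene were used as deposited. They were made by the authors with STAR 3.0.4 and featureCounts 1.4.5 of the Subread package, names and versions per the submitters' processing notes. Qiagen's micro plus kit was used for the RNA and Clontech's SMART kit for the cDNA, per the labels' protocols. Build, annotation, strand and treatment of reads that fit several loci are not given in the sources used here. Symbols come from GENCODE M21 (GRCm38), which matched 40254 IDs of each table. In the table of P0, a total of 276 repeated entries were dropped and 4 columns that match no sample were not used. Those 4 columns are named as further FLT3-ITD/NHD13 libraries. The genotype of every P0 library used here rests on the match of column name to sample title. The P0 NHD13 samples are not analysed here.

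Each age was fitted with edgeR 4.0.16 in R 4.3.3 (TMM, filterByExpr, robust quasi-likelihood F test, 1 mean per group), over 14394 genes at P14 and 14359 at P0, and both ages together over 14984. P-values were adjusted over all tested genes (Benjamini-Hochberg, threshold 0.05). Fold changes are log2 with edgeR's SE. The script was tested on simulated data. DESeq2 1.42.0, other scalings, no filter, a replicate block and leaving out each library were alternatives. The count of a member per kilobase uses the exon length of the gene in the annotation. Named in each comparison were up to 5 called members with the highest and 5 with the lowest log2 fold change, beside a fixed set (paralog pairs, stalk and 5S particle genes, Rps14, Rps19, Rpsa and Rps6), and any other gene was named for its place nearest the threshold or its separation. Some members that the rule names are not reported here. The members, gene lists and marker lists were chosen with earlier results of these data known. No library pair of a group was a copy (chi-square per degree of freedom at least 9.85 over 54 pairs).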

Additional observations from a re-analysis of the deposited data

Results flagged for a closer look

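Within each group of 4 libraries, a library was picked out where its gap to the nearest other one took up an unusually large part of the group's range (Dixon's test at its 95% critical value). This was applied to 288 groups of values over 29 named members and the library measures, and 20 were picked out. Chance picks out about 1 in 20 groups.

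Library 2 of FLT3-ITD at P0 was low in the ribosomal protein genes as a whole. Its share of counts was 3.67% against 4.72 to 4.93% in the other libraries of its group, its mean log2 CPM over members was 6.26 against 6.63 to 6.68, and its pseudogene share was 0.0174% against 0.0221 to 0.0223%. Rps19 was at 592 against 743 to 771 CPM there.

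Library 2 of FLT3-ITD/NHD13 at P0 was high for Rps26 (579 against 255 to 302 CPM), Rpl38 (51.7 against 17.3 to 22.1 CPM) and the muscle form Rpl3l (3.22 against 0.106 to 0.544 CPM). Library 3 of the same group was high for Rpl39l (0.818 against 0.167 to 0.266 CPM). Library 3 of FLT3-ITD/Runx1-HET was low for Rps26 (368 against 477 to 498 CPM) and high for Rpl3 (321 against 286 to 292 CPM).

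Wild-type library 1 at P14 was high for Rpl38 (32.5 against 21.5 to 22.5 CPM) and Rpl7l1 (560.4 against 419 to 436 CPM). Wild-type library 1 at P0 was high for Rpl7 (847 against 784 to 790.3 CPM), and library 2 was high for Rpl7l1 (442 against 402 to 405 CPM). Rpsa was high in library 1 of FLT3-ITD/NHD13 at P14 (34.5 against 21.7 to 22.7 CPM) and in library 4 of Runx1-HET (28.8 against 23.0 to 23.8 CPM). Rpl10l was above 0 in 1 library each of FLT3-ITD/NHD13 at P14 (0.152 CPM), FLT3-ITD/Runx1-HET (0.0586 CPM), wild type at P14 (0.0431 CPM) and wild type at P0 (0.141 CPM), with the other 3 at 0, all from at most 4 counts.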

How the results depend on the processing

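The number of members called depended on single libraries. When 1 library was left out it ranged from 10 to 37 for FLT3-ITD/Runx1-HET against wild type, from 0 to 14 against FLT3-ITD and from 1 to 12 against Runx1-HET. It ranged from 1 to 7 for FLT3-ITD/NHD13 at P14 and from 0 to 4 for FLT3-ITD at P14, each against wild type. It ranged from 0 to 1 for NHD13 and Runx1-HET against wild type, for FLT3-ITD/NHD13 against FLT3-ITD at either age and for the age difference of FLT3-ITD/NHD13, and stayed at 0 for the other comparisons. DESeq2 called 2 members in FLT3-ITD/NHD13 against wild type at P14, 2 in FLT3-ITD/Runx1-HET against FLT3-ITD, 6 against Runx1-HET and 3 (all lower) in FLT3-ITD/NHD13 against FLT3-ITD at P0. Scaling by library totals alone called 2 members, both lower, in NHD13 against wild type. Without a filter on low counts 1 member was called in FLT3-ITD/NHD13 against FLT3-ITD at P0 (Rps27l, log2 fold change -0.69, adjusted p = 0.0468), and 1 member called against Runx1-HET was no longer called. The cause of these changes was not tested. For DESeq2 and all refits, here, above and below, the share of all tested genes called is not given. Their counts of members therefore do not show whether the members alone or all genes changed.

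At P14 the correlation of deviations between same-numbered libraries of different groups ran from -0.29 to 0.60, with 20 of 60 pairs over 0.1. Between libraries of different number, 51 of 180 pairs were over 0.1. The medians were 0.0008 and -0.0058. At P0 it ran from -0.29 to 0.51 for the same number, with a median of 0.13 and 7 of 12 pairs over 0.1. For different numbers at P0 the median was -0.03, with 10 of 36 pairs over 0.1. Whether same-numbered libraries share a batch was not tested. With the replicate number as a block, 2 members were called in FLT3-ITD/NHD13 against wild type at P14, 4 in FLT3-ITD/Runx1-HET against FLT3-ITD, 5 against Runx1-HET, 28 against wild type, and 1 (Rps27l, lower, -0.65) in FLT3-ITD/NHD13 against FLT3-ITD at P0. Members' medians moved by less than the spread between replicates in all 272 refits. This includes refits limited to members with at least 50% unique words, an alternative chosen after seeing the data. Leaving out 1 of 4 libraries can hardly move a median by that much, so this is a weak check. Medians crossed 0 in some comparisons when 1 library was left out. They lay between -0.05 and 0.24 for FLT3-ITD/NHD13 against wild type at P0. For FLT3-ITD/NHD13 against FLT3-ITD at P14 they lay between -0.04 and 0.05, and for NHD13 against wild type between -0.09 and 0.01. The interaction medians of FLT3-ITD lay between -0.003 and 0.114 with NHD13 and between -0.01 and 0.09 with Runx1-HET. For the age difference of FLT3-ITD/NHD13 they lay between -0.06 and 0.18. No named gene changed direction. At this depth genes at under 1 CPM rest on a few counts per library, and their differences have wide errors.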
